A study of Mus musculus with 21 samples.

Results

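The genes described here are 8 members of the signalling path from the insulin receptor substrate through PI3K and AKT to the FOXO transcription factors, together with the FOXO and glucose-responsive gene Txnip. They are Irs2, Pik3r1, Akt1, Akt2, Foxo1, Foxo3, Foxo4 and Txnip, chosen by symbol, and all 8 were found among the 21000 gene symbols of the count table. Their levels are given in 21 RNA-seq libraries of hematopoietic stem cells (HSCs) sorted from the bone marrow of wild-type mice, 3 libraries in each of 7 groups. Mice aged 10 weeks received PBS once or PBS 3 times and were analysed at day 6 (2 groups), or received 5-FU (150 mg/kg intraperitoneally) once or 3 times and were analysed at day 6 or at day 21 (4 groups). The injection counted as day 1, and repeated injections were 21 days apart, so mice given 3 doses were older when analysed. The seventh group held HSCs taken fresh from mice aged 2 years that received neither agent (old). 5-FU (5-fluorouracil) is an antimetabolite that kills dividing blood progenitors, after which surviving HSCs enter the cell cycle. No PBS group was analysed at day 21, so at that time the treatment and the day cannot be told apart. The methods describe the 3 libraries of a group as independent experiments, and each old library came from 1 mouse. The study also speaks of pooled samples for the PBS and 5-FU groups, and how many mice went into each of those libraries is not given in the sources used here. In the count table the columns of all 6 libraries of PBS once and 5-FU once at day 6 carry a suffix of unstated meaning that no other column has. It cannot be told apart from the group wherever one of these groups is compared with another group (5-FU once at day 21, PBS 3 times or old), nor from the number of doses in the day 6 interaction.

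As background, insulin-like growth factors and cytokines engage receptors that recruit adaptors such as IRS2. The adaptors bring the PI3K lipid kinase to the membrane, and the lipid it makes activates the AKT kinases. AKT phosphorylates FOXO factors, which then bind 14-3-3 proteins and leave the nucleus, so that genes driven by FOXO fall quiet when the path is active. FOXO factors are known for keeping HSCs quiescent and low in reactive oxygen species. Txnip encodes a protein that binds thioredoxin and promotes removal of glucose transporters from the cell surface, and its transcription is known to respond both to FOXO factors and to the glucose sensors MondoA and ChREBP. Much of the control of this path acts on phosphorylation and location of proteins, which mRNA levels do not show.

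The windows of 250 bases before the RefSeq start were taken from RefSeq on GRCm38.p6, where 7 of the 8 members had an entry. They are shown for Txnip and Irs2, the 2 members called lower at day 6 after 5-FU 3 times than after PBS 3 times by the edgeR test described below. Akt2, called lower after 5-FU once but not after 5-FU 3 times, is not shown. Capitals mark the motifs searched on both strands, which were the FOXO core GTAAACA, the carbohydrate response element pattern (2 copies of CACGNG separated by 5 bases), the E-box CACGTG and the CCAAT box. The Txnip window is chr3:96557707-96557956 on the plus strand, and the Irs2 window is chr8:11008930-11009179 on the minus strand, each printed 5′ to 3′.
Txnip: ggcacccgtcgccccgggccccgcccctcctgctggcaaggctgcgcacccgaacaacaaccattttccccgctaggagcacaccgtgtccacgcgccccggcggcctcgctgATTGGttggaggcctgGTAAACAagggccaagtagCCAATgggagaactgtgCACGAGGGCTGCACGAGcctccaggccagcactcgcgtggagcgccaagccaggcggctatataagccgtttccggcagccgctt
Irs2: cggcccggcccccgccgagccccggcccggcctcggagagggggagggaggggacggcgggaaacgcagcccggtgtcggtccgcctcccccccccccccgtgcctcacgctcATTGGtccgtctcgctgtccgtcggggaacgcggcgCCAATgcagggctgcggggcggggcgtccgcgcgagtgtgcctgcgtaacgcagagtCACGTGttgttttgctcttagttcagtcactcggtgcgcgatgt
In Txnip, GTAAACA lay 121 to 115 bases before the start and the carbohydrate response element pattern 85 to 69 bases before it, with a CCAAT box on either side of the FOXO core. The Irs2 window held CACGTG 44 to 39 bases before the start and 2 CCAAT boxes, and neither of the other motifs. Of 32851 windows of this length, 3.17% held GTAAACA, 0.0457% (15 windows) the carbohydrate response element pattern, 6.02% CACGTG and 33.8% a CCAAT box. Among the other members, 1 of the 2 windows of Akt1 held the FOXO core on the opposite strand, Foxo1 held 3 CCAAT boxes and 1 window of Pik3r1 held 1. These are matches of letters and not tests of binding. The GENCODE start of Irs2, at base 11008458, lies downstream of the RefSeq start.

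In GENCODE vM21 on GRCm38, Txnip spans chr3:96557957-96561883, Irs2 chr8:10984681-11008458, Pik3r1 chr13:101680563-101768217, Akt1 chr12:112653821-112674884 and Akt2 chr7:27591552-27640826. Foxo1 spans chr3:52268336-52353221, Foxo3 chr10:42181841-42276755 and Foxo4 chrX:101254528-101260873. An antisense gene, Gm15441, shares 19.4% of the exonic bases of Txnip, and for Foxo1 and Irs2 the shared part is 7.78% and 2.56%. Strand was not stated for the counting, and the kits used do not mark strand, so reads of a gene and of its antisense partner cannot be told apart there. The other 5 members share no exonic bases with another annotated gene.

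Each library held 22184885 to 38649033 counts, with a median of 26962256, so that 3 counts correspond to 0.0776 to 0.135 CPM (counts scaled to a common library total). Levels below are normalized CPM, which also carry the TMM factor of the library. All 12 HSC marker genes were detected in every group, but their summed level was 3321 to 3846 normalized CPM in the 6 libraries taken at day 6 after 5-FU and 4407 to 5293 in the other 15. Kit fell in both day 6 comparisons of 5-FU with PBS, and Mecom rose. Summed markers of myeloid cells were 53.9 to 77.9 against 91.3 to 156, and those of megakaryocytes and platelets 34.1 to 86.4 against 87.6 to 143. Lymphoid markers summed to at most 9.72, with Rag1 at 0 in all libraries, and erythroid markers were 71.9 to 119 in old HSCs and 35.7 to 66.6 elsewhere. Within the latter range, the erythroid sum was 63.6 to 66.6 at day 6 after 5-FU once and 35.7 to 51.8 with PBS once. After 3 doses these groups overlapped. Single erythroid markers moved in both directions at day 6. Of 5 tested against PBS by edgeR, as described below, 1 rose and 2 fell after 1 dose, and 2 rose and 1 fell after 3. For sorting at day 6 after 5-FU the gate was widened to cells with dim c-Kit, and the Mac-1 antibody was left out. These marker levels move with the groups in every result below on 5-FU at day 6, and their part in those results was not tested. In bulk RNA, fewer cells of a type and less RNA per cell cannot be told apart.

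Txnip was the most abundant of the 8 genes per kilobase of transcript. Averaged over the 21 libraries, its level was 218 normalized CPM per kb, followed by Akt1 at 119 and Akt2 at 102. Pik3r1 was at 19.8 normalized CPM per kb, Foxo3 at 6.85, Foxo1 at 2.50 and Irs2 at 1.95. Foxo4 was at 0.289, resting on 13 to 53 counts a library. Between the lowest and the highest library, Akt1 varied 4.51-fold and Foxo4 3.62-fold in CPM. Irs2 varied 2.80-fold and Txnip 2.52-fold. The other 4 genes varied 1.73-fold to 1.89-fold.

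Ordered by group mean, Txnip was highest at day 21 after 5-FU (775 ± 48.8 normalized CPM after 1 dose and 771 ± 65.5 after 3, SD, n = 3). It was intermediate with PBS 3 times (690 ± 20.3), in old HSCs (688 ± 101) and with PBS once (659 ± 59.8), and lowest at day 6 after 5-FU (379 ± 26.5 after 3 doses and 359 ± 26.0 after 1). On this scale the day 21 groups did not overlap with either PBS group, but their lowest library (720) lay just above the highest PBS library (717). The highest old library (777) lay among the day 21 libraries, and the day 6 groups after 5-FU lay below all others. Neighbours within each of these sets overlapped. For Akt2 the only break between neighbours lay above 5-FU once at day 6 (342 ± 23.8), and for Akt1 above the old group (124 ± 3.96). For Pik3r1 it lay between the old group (163 ± 11.6) and PBS 3 times (143 ± 2.75). Neighbouring groups overlapped throughout for Irs2 and the 3 FOXO genes. Irs2 ran from 15.4 ± 2.38 with PBS 3 times to 8.70 ± 2.31 at day 6 after 5-FU 3 times.

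**Figure D1:**
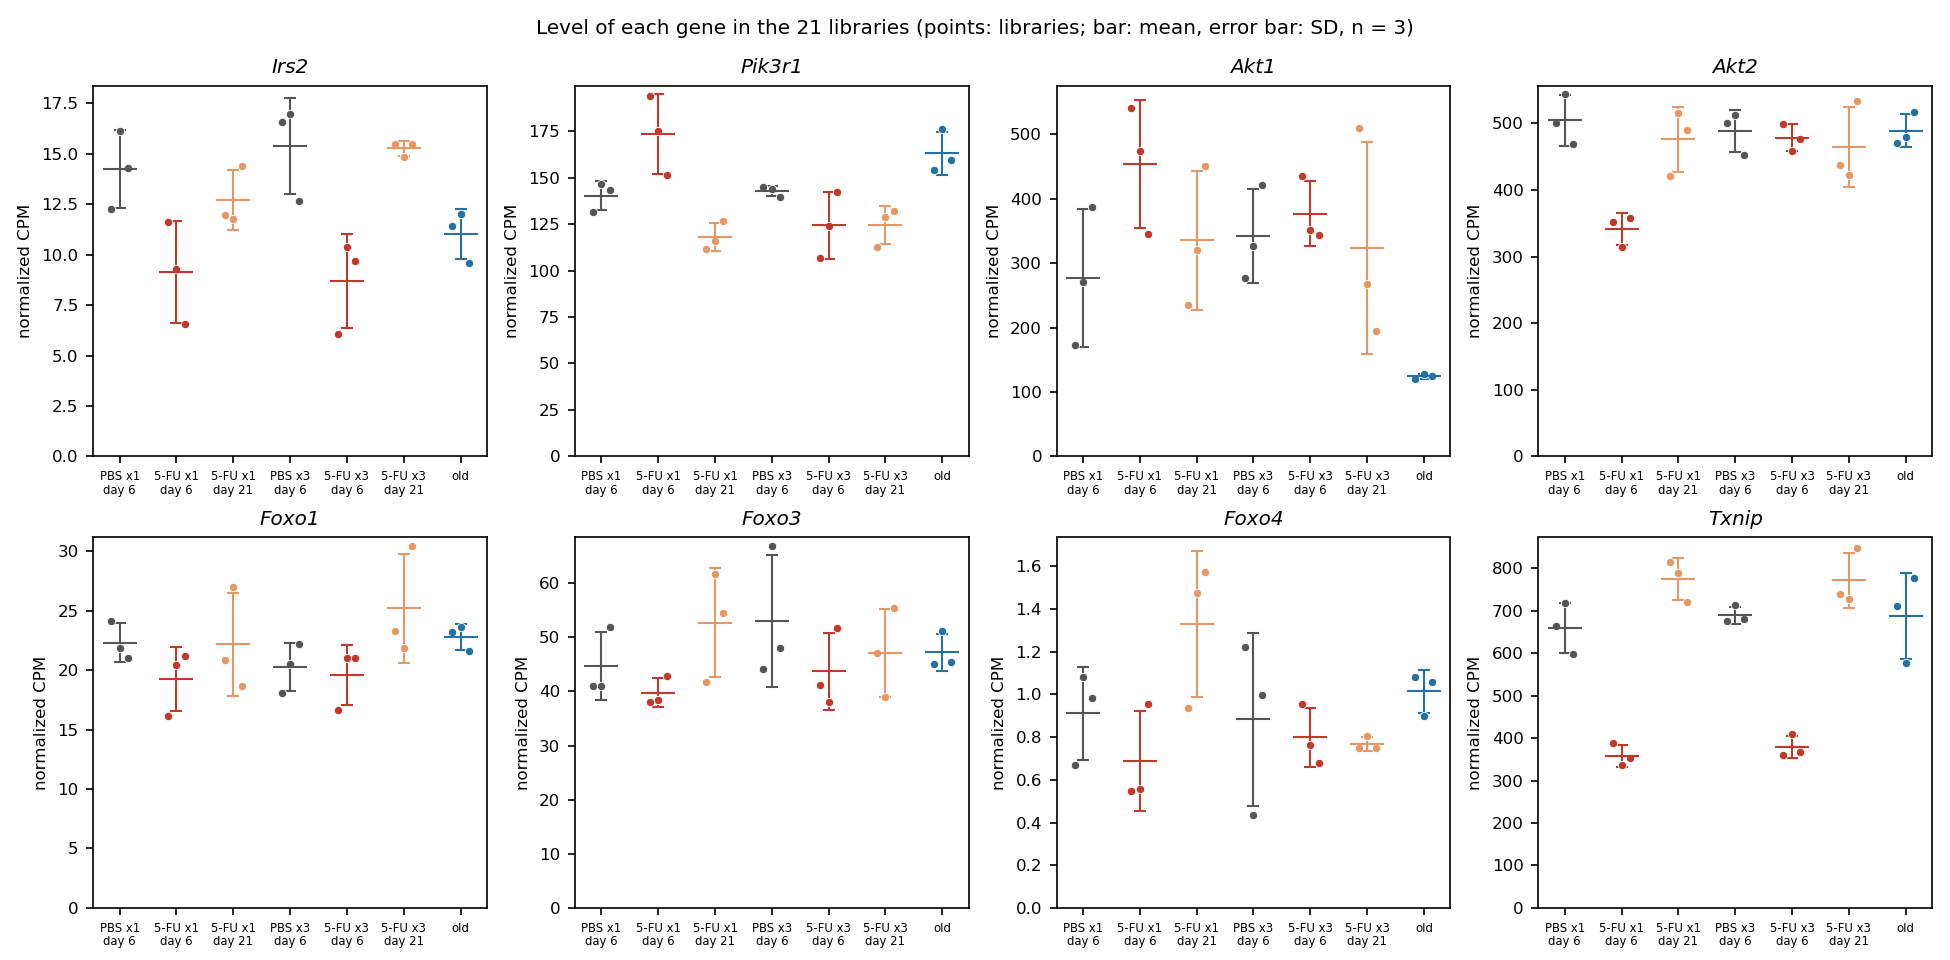
Level of each of the 8 genes in the 21 libraries. The y axis gives normalized CPM from 0, points are libraries, and bars with error bars are the mean ± SD of 3 libraries in each of 7 groups, with x1 and x3 for 1 and 3 administrations. Txnip lies at 337 to 409 in all 6 libraries at day 6 after 5-FU and at 578 to 847 in the other 15, and Akt1 is lowest in the 3 old libraries.

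At day 6 after a single dose, the question was which of these genes differed between HSCs from mice given 5-FU once and PBS once. Txnip and Akt2 fell, which is 2 of the 8 members, and no member rose. Of all 12759 genes tested, 22.2% passed the same test, 11.5% upwards and 10.6% downwards. After 3 administrations, Txnip and Irs2 were lower, again 2 of 8, against 18.1% of 12729 genes tested, with 9.84% up and 8.30% down. In these comparisons 41.5% and 38.0% of genes had groups that did not overlap. The 2 comparisons share no library. Genes were tested with edgeR (quasi-likelihood), with p-values adjusted after Benjamini and Hochberg across all of them and a threshold of 0.05, and every adjusted p below is from it unless another tool is named. Without normalization factors, the share of calls that were upward was 41.0% in place of 52.0% after 1 administration and 35.6% in place of 54.2% after 3, and in the latter the median of all genes moved to −0.11 on the log2 scale. With 3 libraries against 3, the exact permutation test of a single gene cannot go below 0.1.

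**Figure D2:**
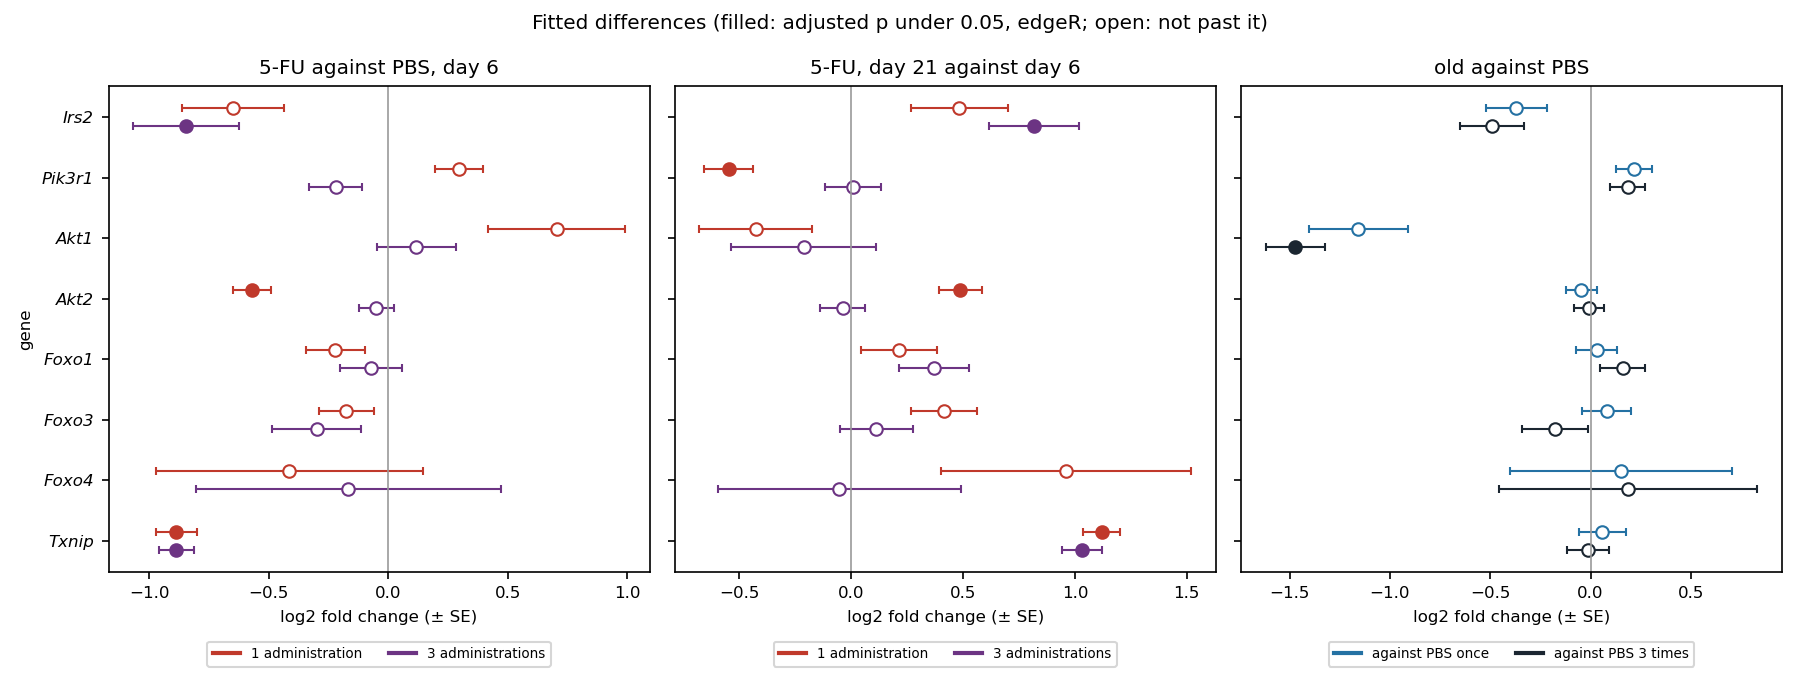
Fitted log2 fold changes (x axis, ± SE) of the 8 genes (y axis) in 6 comparisons, with filled points for an adjusted p under 0.05 by edgeR and open points otherwise. At day 6 the 2 values of Txnip coincide at −0.89, while those of Pik3r1 lie on opposite sides of 0 and neither passed the test.

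Irs2 encodes an adaptor that links the insulin and IGF receptors to PI3K, and is also known as a gene that FOXO factors switch on. Its level was 12.3, 16.2 and 14.3 normalized CPM in the 3 libraries given PBS once, and 11.6, 9.30 and 6.55 in those given 5-FU once and taken at day 6. The groups did not overlap, but the difference of −0.65 on the log2 scale (SE 0.21) did not pass the test (adjusted p = 0.0683, with 0.0345 to 0.179 over 13 alternatives, of which 3 called it, DESeq2 among them). In the series of 3 administrations the 3 PBS libraries were at 16.6, 17.0 and 12.7, and the 5-FU libraries at day 6 were at 6.06, 10.4 and 9.69. All 3 treated libraries lay below all 3 controls. The fitted fall was −0.84 (SE 0.22, adjusted p = 0.0401), a level 44.3% lower. That call did not hold in any of the 6 fits that left out 1 library (adjusted p up to 0.107). The expression of Irs2 was low throughout, with 171 to 547 counts a library.

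Pik3r1 encodes p85α, the regulatory subunit that holds and stabilizes the catalytic subunits of PI3K. After 1 dose its level at day 6 was 194, 175 and 151 normalized CPM with 5-FU and 131, 146 and 143 with PBS. After 3 doses it was 107, 124 and 142 with 5-FU and 145, 144 and 140 with PBS. The treated libraries lay above the controls without overlap in the former, and overlapped with them in the latter. The differences were 0.30 (SE 0.10, adjusted p = 0.0733) and −0.22 (SE 0.11, adjusted p = 0.220), neither of which passed the test. DESeq2 called the first of them (adjusted p = 0.0366). The difference between these effects, tested as an interaction over 12 libraries, was −0.50 (SE 0.16, adjusted p = 0.153). DESeq2 called it (adjusted p = 0.0455).

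Akt1 and Akt2 encode serine-threonine kinases that PI3K activates, of which AKT2 is best known for glucose uptake in insulin-responsive tissue. Akt2 was at 501, 545 and 468 normalized CPM with PBS once and at 352, 314 and 358 at day 6 after 5-FU once. The groups were well apart, and all 3 treated libraries were below every other library of the series. The fall was −0.57 (SE 0.08, adjusted p = 0.00441), a level 32.7% lower, and it was called in all 13 alternatives (adjusted p up to 0.0203). After 3 administrations Akt2 was at 499, 459 and 477 with 5-FU and at 500, 512 and 453 with PBS, so the groups overlapped. The difference there was −0.05 (SE 0.07, adjusted p = 0.676). No member was called in the interaction by edgeR, against 0.650% of all genes, 2 had an unadjusted p under 0.05, against 14.8%, and DESeq2 called 2, against 5.41%. The interaction of Akt2 was 0.53 (SE 0.11) and did not pass the threshold (adjusted p = 0.0574, with 0.000396 by DESeq2 and up to 0.113 over 19 alternatives), so that a difference between 1 and 3 doses was called by DESeq2 and not by edgeR. Megakaryocyte and platelet markers also differed between these groups, at 34.1 to 43.3 normalized CPM after 1 dose and 80.5 to 86.4 after 3. Gp1bb and Itga2b, 2 of the 5 genes on that marker list, had a significant positive interaction by edgeR. So did 2 of 12 HSC markers and 1 of 6 erythroid markers, all negative, but 0 of 10 myeloid and 0 of 2 lymphoid markers. Over all genes this share was the 0.650% given above. The part of these markers in the result for Akt2 was not tested.

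Akt1 was at 541, 475 and 345 normalized CPM at day 6 after 5-FU once and at 174, 270 and 387 with PBS once. The libraries of 1 group differed widely here, and the groups overlapped. The difference of 0.70 (SE 0.29) did not pass the test (adjusted p = 0.119), and it was called in 1 of 13 alternatives, the one without PBS replicate 3 (1.03, adjusted p = 0.0459). After 3 doses Akt1 was at 435, 351 and 344 with 5-FU and at 277, 327 and 421 with PBS, a difference of 0.12 (SE 0.17, adjusted p = 0.665). Its interaction was −0.57 (SE 0.37, adjusted p = 0.522).

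Foxo1, Foxo3 and Foxo4 encode the FOXO factors that AKT phosphorylates. Foxo3 ranged from 38.0 to 42.9 normalized CPM at day 6 after 5-FU once and from 41.0 to 52.0 with PBS once, and from 38.1 to 51.8 against 44.1 to 66.9 after 3 doses. Foxo1 ranged from 16.1 to 21.2 against 21.0 to 24.1, and from 16.6 to 21.0 against 18.1 to 22.2. All these pairs of groups overlapped. The differences of Foxo3 were −0.18 (SE 0.12, adjusted p = 0.308) and −0.30 (SE 0.19, adjusted p = 0.312), and those of Foxo1 were −0.22 (SE 0.12, adjusted p = 0.237) and −0.07 (SE 0.13, adjusted p = 0.738). Foxo4, at 0.434 to 1.22 normalized CPM in these 4 groups, gave −0.41 (SE 0.56, adjusted p = 0.631) and −0.17 (SE 0.64, adjusted p = 0.879). None of the 3 passed the test by edgeR or DESeq2 in either comparison, and none had an unadjusted p under 0.05. Foxo4 had the widest errors of the members in both comparisons and rested on 13 to 38 counts a library in these 4 groups. Foxo6, the fourth factor, had 0 to 4 counts a library and was at 0 in all libraries of 3 groups.

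Txnip was at 663, 717 and 598 normalized CPM with PBS once and at 387, 337 and 352 at day 6 after 5-FU once. In the series of 3 doses it was at 676, 713 and 680 with PBS and at 360, 409 and 366 with 5-FU. In both, every treated library was below every control. The fall was −0.89 (SE 0.09, adjusted p = 0.00161) after 1 dose and −0.89 (SE 0.07, adjusted p = 0.00163) after 3, or 45.9% and 45.9% lower. It was called in all 13 alternatives of each comparison, with adjusted p up to 0.00889 and 0.0105. The interaction was 0.01 (SE 0.11, adjusted p = 0.973). The antisense gene that overlaps Txnip is no row of the count table, so its share of these reads was not measured.

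By day 21 the question was whether the levels had returned. Txnip stood at 815, 790 and 720 normalized CPM after 5-FU once and at 738, 729 and 847 after 5-FU 3 times. On this scale these 6 libraries lay above all 6 PBS libraries, but narrowly, since the highest PBS library was at 717. The TMM factors were 0.995 for the library at 720 and 1.03 for the one at 717. By library total alone the order of these 2 libraries was reversed, so the separation after 1 dose rests on normalization. Against PBS of the same number of doses, taken at day 6, the differences were 0.23 (SE 0.09, adjusted p = 0.315) and 0.16 (SE 0.08, adjusted p = 0.430), neither past the threshold. No member was called by edgeR at day 21 against PBS after 1 or 3 doses, against 0.221% and 0.0475% of all genes tested, and 2 and 0 members had an unadjusted p under 0.05, against 13.3% and 13.7%. DESeq2 called 0 members in both, against 5.73% and 4.69%. Groups that do not overlap are common in such comparisons of 3 with 3, at 20.3% and 20.4% of genes. The other member with no overlap in both was Pik3r1, at 112 to 126 after 5-FU once and 113 to 132 after 5-FU 3 times, below the 131 to 146 and 140 to 145 of the PBS groups. Its differences were −0.25 (SE 0.09, adjusted p = 0.276) and −0.20 (SE 0.09, adjusted p = 0.368).

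From day 6 to day 21 after 5-FU, which uses the same 5-FU libraries again, Txnip rose by 1.12 on the log2 scale (SE 0.08, adjusted p = 0.000693) after 1 dose and by 1.03 (SE 0.09, adjusted p = 0.00106) after 3, called in all 13 alternatives of each. After 1 dose Akt2 also rose, from 314 to 358 at day 6 to 422, 516 and 491 at day 21 (0.49, SE 0.10, adjusted p = 0.0126), and Pik3r1 fell (−0.55, SE 0.11, adjusted p = 0.0126). Both were called in all 13 alternatives. Thus 2 of 8 members rose and 1 fell, against 12.3% and 13.7% of 12589 genes, or 26.0% in either direction. After 3 doses Irs2 rose with Txnip, from 6.06 to 10.4 at day 6 to 15.5, 14.8 and 15.5 at day 21 (0.82, SE 0.20, adjusted p = 0.0298), and 2 of 8 members rose, against 8.68% of 12553 genes upwards and 19.5% in either direction. The Irs2 call was lost in 4 of the 6 fits without 1 library, with adjusted p up to 0.0742. After 1 dose the rise of Irs2 was 0.48 (SE 0.22, adjusted p = 0.141), to 11.9, 11.8 and 14.4, with no overlap, as had 43.7% of genes after 1 dose and 38.7% after 3. Akt2 and Pik3r1 gave −0.04 (SE 0.10) and 0.01 (SE 0.12) after 3 doses. Akt1 gave −0.21 (SE 0.32, adjusted p = 0.686) there, and −0.70 (adjusted p = 0.0499) without day 21 replicate 1. Without normalization factors, 63.5% in place of 44.4% of the calls over all genes after 3 doses were upward, and the median of all genes moved to 0.12. Foxo3 gave 0.42 (SE 0.15, adjusted p = 0.0776) after 1 dose, called by DESeq2 (0.0358), and Foxo1 gave 0.37 (SE 0.16, adjusted p = 0.141) after 3.

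Old HSCs were compared with each PBS group to ask which members differ with age, although age, injection and collection differ together in this design. Akt1 was at 120, 128 and 125 normalized CPM in the 3 old libraries, the lowest 3 of all 21 libraries, whose other values ran from 174 to 541. The old libraries differed little among themselves, with a coefficient of variation of 3.18% against 13.4% to 51.0% in the other groups. Against PBS 3 times, Akt1 was lower by −1.47 (SE 0.15, adjusted p = 0.00713), or 63.9%, and was the only member called among 8, against 0.996% of 12847 genes, 0.444% downwards. The call was lost without old replicate 1 (adjusted p = 0.0522) and without old replicate 2 (adjusted p = 0.0774). Against PBS once, the difference was −1.16 (SE 0.25) and missed the threshold by edgeR (adjusted p = 0.0692), and 0 of 8 members were called, against 1.88% of 12855 genes (76.4% of these calls upward, or 65.9% without normalization factors). DESeq2 called it (adjusted p = 5.48e-05), as did edgeR under a filter of 10 counts per library (adjusted p = 0.0496) and edgeR without PBS once replicate 1 (−1.41, adjusted p = 0.00822), the library with the lowest Akt1 among the young. At an unadjusted p under 0.05 there were 3 members in this comparison, against 14.3% of genes, and 2 in that with PBS 3 times, against 11.2%. DESeq2 called 1 member in each, against 6.41% and 4.43%. Between PBS 3 times and PBS once no member was called by edgeR or DESeq2, against 0.0156% and 4.27% of genes, and none had an unadjusted p under 0.05, against 12.8%. These groups differed by 0.31 in Akt1 (SE 0.29, adjusted p = 0.716) and by 0.07 in Txnip (SE 0.08, adjusted p = 0.783).

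Other members did not pass the test in old HSCs. Pik3r1 was at 154, 176 and 160 normalized CPM, above all 6 PBS libraries (0.18, SE 0.09, adjusted p = 0.484 against PBS 3 times, and 0.22, SE 0.09, adjusted p = 0.318 against PBS once). Irs2 was at 11.4, 12.04 and 9.61, below all 6 PBS libraries (−0.49, SE 0.16, adjusted p = 0.278, and −0.37, SE 0.15, adjusted p = 0.326). Txnip was at 710, 578 and 777, a range that covers both PBS groups (−0.01, SE 0.10, and 0.06, SE 0.12). In these comparisons 16.4% and 19.8% of genes had groups that did not overlap. The summed level of the erythroid markers was highest in the same 3 old libraries, although not every marker on the list was highest there. Of the 6 erythroid markers tested, edgeR called 0 in old HSCs against PBS 3 times and against PBS once, with 3 and 2 at an unadjusted p under 0.05 and 1 by DESeq2 in each. Their part in the result for Akt1 was not tested.

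Ratios and shares within the AKT and FOXO families were computed within each library, so that they need no normalization between libraries. They use counts per kilobase of transcript. The ratio of Akt2 to Akt1 per kb was 0.636 to 1.07 with PBS 3 times, with a mean of 0.877 ± 0.220 (SD, n = 3), and 0.717 to 1.71 with PBS once, with a mean of 1.21 ± 0.495. At day 6 after 5-FU once the balance lay with Akt1, and the ratio was 0.386 to 0.614 (0.464 ± 0.130). In old HSCs it lay with Akt2, at 2.22 to 2.45 (2.33 ± 0.116). These were the groups with the lowest and the highest mean of the 7. At day 6 after 5-FU 3 times the ratio was 0.679 to 0.822, also under 1 in every library (mean 0.758). At day 21 it was 0.645 to 1.06 after 5-FU once (mean 0.885) and 0.509 to 1.63 after 5-FU 3 times (mean 1.02). No test was made of the ratios or the shares. Foxo3 led its family in every library, at 66.7% to 79.6%, with Foxo1 at 19.3% to 31.0%, Foxo4 at 1.12% to 4.70% and Foxo6 at most 0.549%. The group means of Foxo3 lay between 68.6% and 74.1%, and the ranges of the groups overlapped except between 5-FU 3 times at day 21 (67.2% to 70.2%) and PBS 3 times (70.9% to 79.6%).

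**Figure D3:**
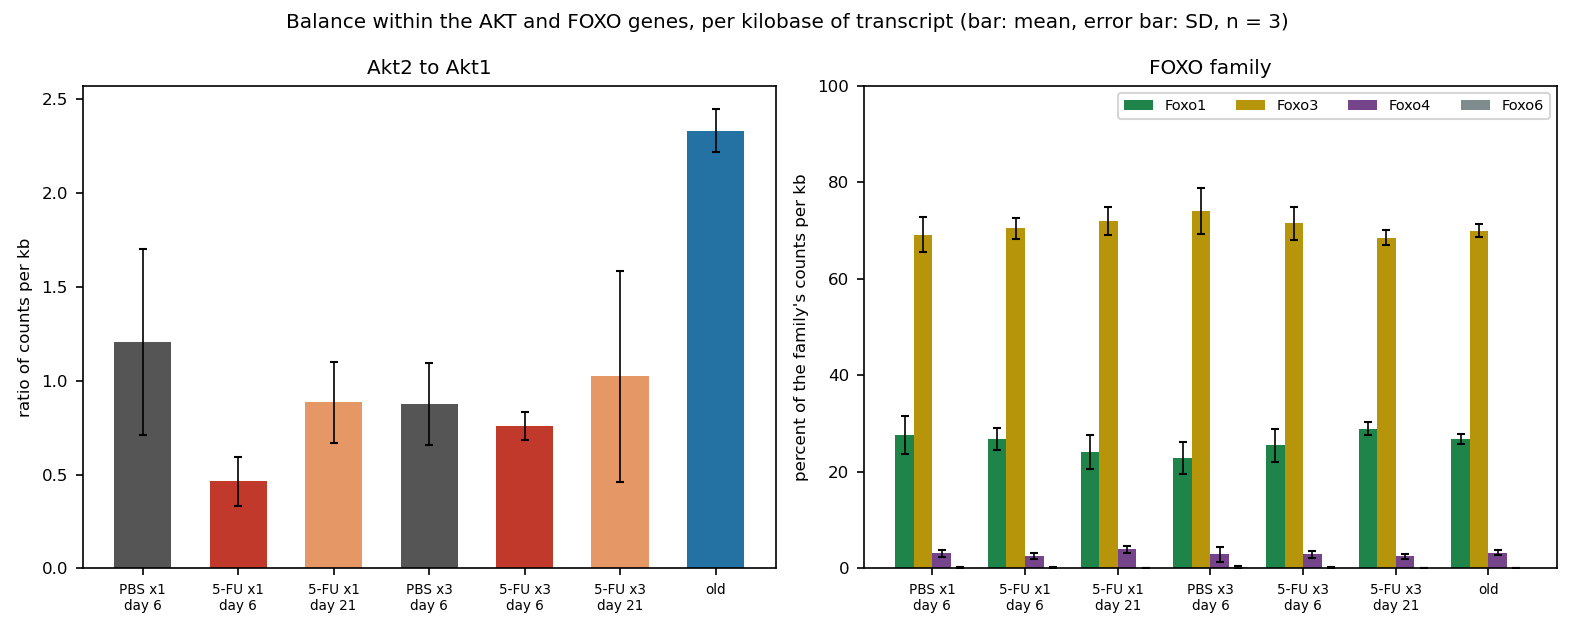
Ratio of Akt2 to Akt1 in counts per kb (left) and share of each gene in the summed counts per kb of the FOXO family in percent (right), as mean ± SD of 3 libraries for each of 7 groups on the x axis. The ratio is 0.464 at day 6 after 5-FU once and 2.33 in old HSCs, whereas Foxo3 stays between 68.6% and 74.1% in all groups.

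The neighbours of these genes in the path were read from 10 lists with 93 genes in all, of which 86 were tested in each day 6 comparison. After 1 dose 11 of the 86 rose and 15 fell, against 11.5% and 10.6% of all genes, with a median of −0.12 against −0.00 over all genes. After 3 doses 6 rose and 17 fell, against 9.84% and 8.30%, with a median of −0.08 against −0.01. These shares are the background for each list at day 6, and lists of so few genes are described by their counts only. The receptors and adaptors had 3 of 8 tested genes down in each comparison, with Insr, the insulin receptor, in both. Txnip and other members count in these lists. At an unadjusted p under 0.05 there were 37.6% of all genes after 1 dose and 32.9% after 3, and DESeq2 called 28.9% and 26.4%. PI3K subunits had 0 of 10 called in either by edgeR (3 and 1 at an unadjusted p under 0.05, and as many by DESeq2), and the substrates of AKT 0 of 7 (4 and 1 at an unadjusted p under 0.05, 2 and 0 by DESeq2). Among AKT and its activating kinases 2 of 7 fell after 1 dose and 1 rose after 3. Among 9 negative regulators 1 rose and 1 fell after 1 dose, and 3 fell after 3.

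Downstream, the FOXO target genes had 3 of 21 up and 7 down after 1 dose, with a median of −0.21, and 1 up and 9 down after 3, with a median of −0.36. From day 6 to day 21 the same list had 8 up and 3 down after 1 dose, against 12.3% and 13.7% of all genes, and 11 up and 1 down after 3, against 8.68% and 10.8%. At day 6 the shares of all genes were the 11.5% up and 10.6% down after 1 dose and the 9.84% and 8.30% after 3 given above. The list holds Txnip, Irs2 and Insr, which other lists also hold. The modifiers and partners of FOXO factors had 5 of 8 up and none down after 1 dose, and 3 up and none down after 3. The thioredoxin system and arrestins had 2 up and 3 down of 12, and then 1 up and 4 down. Glucose-sensing partners of Txnip had 1 of 4 down in each, Mlxip (which encodes MondoA) after 1 dose and Slc2a1 (the glucose transporter GLUT1) after 3. Mlxip gave −0.37 (SE 0.07, adjusted p = 0.0145) after 1 dose and −0.25 (SE 0.10, adjusted p = 0.138) after 3. Slc2a1 gave −0.04 (SE 0.08, adjusted p = 0.748) and −0.33 (SE 0.09, adjusted p = 0.0439), the latter close to the threshold. The FOXO factors themselves had 0 of 3 called. No gene of the lists had a significant interaction by edgeR (0 of 87, 19 at an unadjusted p under 0.05), and DESeq2 called 8, against 0.650%, 14.8% and 5.41% of all genes.

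**Figure D4:**
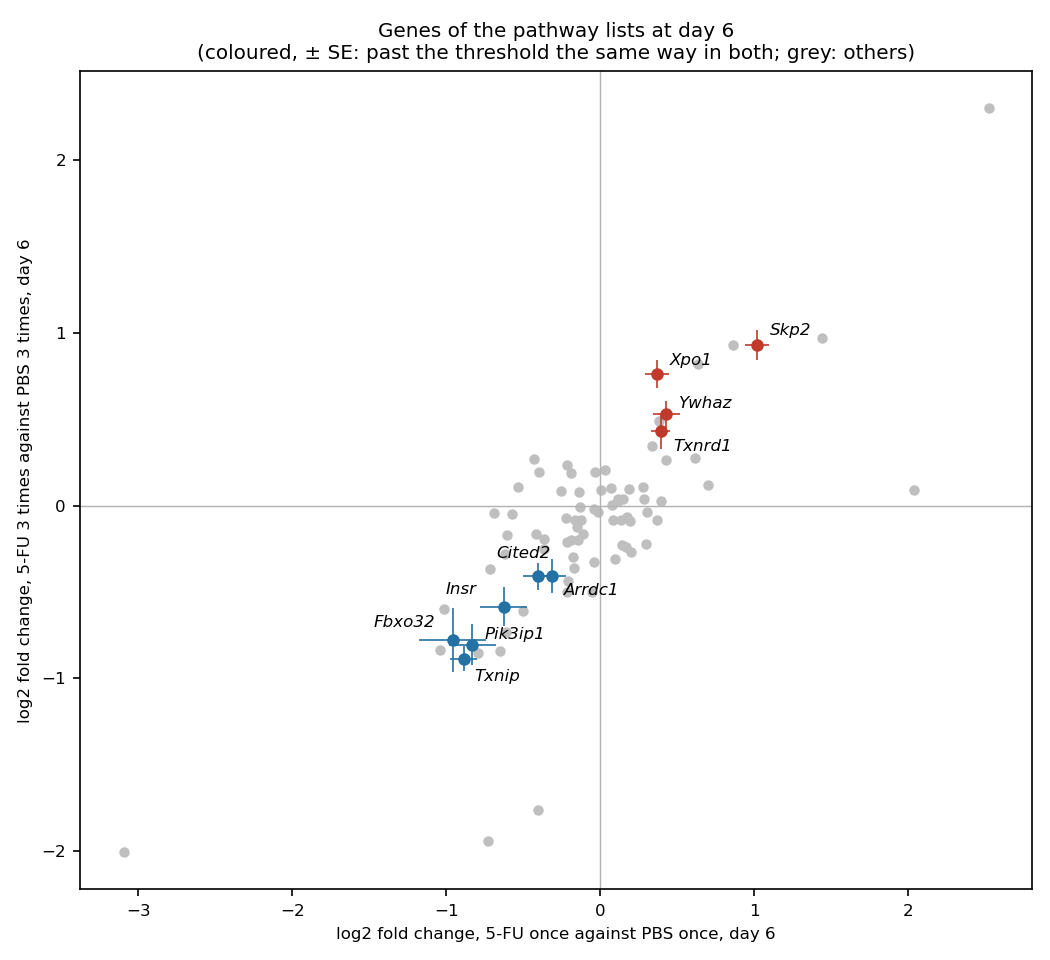
Log2 fold change of the genes of the pathway lists at day 6 after 1 dose (x axis) and after 3 doses (y axis) of 5-FU against PBS. Coloured points with ± SE are the 10 genes described in the text among those called in the same direction in both comparisons with no overlap between groups. Of these, 4 are higher and 6 lower. Grey points are other genes of the lists, and genes not reported by name here are not all drawn.

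In both day 6 comparisons 11 genes of the lists were called in the same direction without overlap between the groups, Txnip among them, as were 9.50% of the 12502 genes tested in both, and 10 of the 11 are described. Skp2, part of the ubiquitin ligase that degrades p27 and FOXO1, rose by 1.02 (SE 0.08) and 0.93 (SE 0.08). Xpo1, the receptor that exports proteins including FOXO factors from the nucleus, rose by 0.37 (SE 0.08) and 0.76 (SE 0.08). Ywhaz, a 14-3-3 protein, rose by 0.43 (SE 0.09) and 0.53 (SE 0.08), and Txnrd1, the cytosolic thioredoxin reductase, by 0.39 (SE 0.06) and 0.43 (SE 0.10). Adjusted p by edgeR in these 8 tests was 0.000935 to 0.0308.

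Of the genes that fell in both, Fbxo32, a muscle atrophy ubiquitin ligase driven by FOXO factors, gave −0.96 (SE 0.21) and −0.78 (SE 0.19). Pik3ip1, which encodes an inhibitor of PI3K, gave −0.83 (SE 0.15) and −0.81 (SE 0.12). Insr gave −0.63 (SE 0.15) and −0.58 (SE 0.11), Cited2, a transcriptional coregulator needed by HSCs, −0.41 (SE 0.09) and −0.41 (SE 0.08), and Arrdc1, an arrestin related to Txnip, −0.31 (SE 0.09) and −0.41 (SE 0.10). Skp2, Pik3ip1 and Txnip were called in all 13 alternatives of both comparisons. Adjusted p rose to 0.123 for Arrdc1, 0.0871 for Fbxo32, 0.0838 for Txnrd1, 0.0750 for Insr, 0.0640 for Cited2, 0.0573 for Xpo1 and 0.0528 for Ywhaz in the weakest alternative.

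Levels at day 21 are given for 2 of these genes, chosen after their values were seen. Skp2 was at 30.4, 22.4 and 23.8 normalized CPM at day 21 after 1 dose, against 64.8, 67.1 and 64.4 at day 6 and 34.6, 31.6 and 30.0 under PBS once. Pik3ip1 went from 29.0, 19.7 and 29.8 at day 6 to 50.6, 45.1 and 45.2 at day 21, with 44.0, 46.3 and 48.3 under PBS once.

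Values are also given for a partner and a relative of Txnip. Txn1, the cytosolic thioredoxin that the Txnip protein binds, was at 24.5, 22.7 and 24.0 normalized CPM at day 6 after 5-FU once and at 18.9, 18.2 and 21.1 with PBS once. The groups did not overlap, as in 41.5% of all genes, and the difference was 0.28 (SE 0.09, adjusted p = 0.0648). After 3 doses the groups overlapped in Txn1, and the difference was 0.11 (SE 0.09, adjusted p = 0.467). Arrdc4, an arrestin that is like Txnip a known target of the glucose sensors, was at 52.8, 40.9 and 38.2 at day 6 after 5-FU 3 times and at 60.5, 56.1 and 67.1 with PBS 3 times. That fall was −0.50 (SE 0.14, adjusted p = 0.0487), called in 6 of 13 alternatives. After 1 dose Arrdc4 ranged from 52.6 to 58.1 with 5-FU and from 49.9 to 66.6 with PBS. The groups overlapped, and the difference was −0.05 (SE 0.12, adjusted p = 0.799). At day 21, where Txnip was highest, the mean of Arrdc4 was 43.4 after 1 dose and 48.5 after 3. The means with PBS once and PBS 3 times were 56.1 and 61.2, so Arrdc4 did not follow Txnip there.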

How the data were processed

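Per the labels and the methods, RNA of 3000 to 3500 sorted HSCs per sample was amplified with SMART-Seq v4, and Nextera XT libraries were sequenced. For mapping, the authors used TopHat 2.0.13 with mm10, followed by Cufflinks 2.2.1 (Cuffdiff). The deposited values are whole-number counts per gene symbol without normalization, and the program that made the counts is not given in the sources used here. Amplified reads are not independent molecules, so counting limits cover counting error only.

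Work on the counts used R 4.3.3. Each pair of groups was fitted alone (the interaction over 12 libraries), after filterByExpr and TMM, with the quasi-likelihood test of edgeR 4.0.16 and Benjamini-Hochberg adjustment over the genes kept. SEs are the log2 fold change divided by the root of F. Levels are CPM after TMM over all 21 libraries, and per-kb values use the longest GENCODE vM21 transcript. Alternatives were RLE factors, library size alone, DESeq2 1.42.0, 2 other count filters, a replicate block, all 21 libraries, and leaving out each library. Pathway genes were named where both day 6 comparisons called them in the same direction without overlap. Slc2a1, Mlxip, Gp1bb, Itga2b, Kit, Mecom, Txn1 and Arrdc4 were chosen after their values were seen. The members and lists were chosen with earlier results of these data known. The fits were tested on simulated data. Some genes of the lists are counted but not reported here by name. Pairs of libraries within a group differed by 15.8 to 34.9 times the sampling variance, so none was taken as a copy.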

Additional observations from a re-analysis of the deposited data

How the results depend on the processing

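Under the alternatives, edgeR's count of members called at day 6 after 1 dose went from 2 to 4 with DESeq2 and with all 21 libraries, which added Irs2 and Pik3r1, and ranged from 2 to 3 without 1 library. After 3 doses it was 1 with a replicate block and 1 to 1 without any library, where Irs2 was lost. DESeq2 called 2 members in the interaction, Akt2 and Pik3r1. From day 6 to day 21 after 3 doses the count was 1 to 2 without 1 library. Against PBS 3 times, old HSCs had 0 to 1 members without 1 library, and against PBS once 0 to 1, with 1 by DESeq2 and 1 with at least 10 counts in every library, in each case Akt1. From day 6 to day 21 after 1 dose it was 3 to 4 without 1 library. Values near 0 that changed sign were not called under any setting. With library size alone the interaction of Txnip was −0.0527 and Akt2 from day 6 to day 21 after 3 doses was 0.0710. Txnip in old HSCs against PBS 3 times was 0.000889 with at least 10 counts in every library. Without 1 library the log2 fold changes after 3 doses at day 6 ranged from −0.0129 to 0.298 for Akt1, −0.147 to 0.0353 for Foxo1 and −0.492 to 0.138 for Foxo4. From day 6 to day 21 after 3 doses they ranged from −0.145 to 0.0234 for Akt2 and −0.0908 to 0.114 for Pik3r1. The interaction ranged from −0.375 to 0.0224 for Irs2 and −0.0510 to 0.0846 for Txnip, and Txnip in old HSCs from −0.0985 to 0.0944 against PBS 3 times and −0.0436 to 0.165 against PBS once. The cause was not tested. Libraries of different groups that share a replicate number deviated from their group means with correlations between −0.0596 and 0.0506 over 27 pairs, 0 of them over 0.1, so the numbers were not taken as pairs. With the replicate block, the adjusted p was 0.0655 for Irs2, 0.0725 for Arrdc4, 0.0779 for Fbxo32, 0.0522 for Cited2 and 0.0776 for Arrdc1 at day 6 after 3 doses and 0.0501 for Arrdc1 after 1 dose. No other called fold change described here was lost among the members, Arrdc4 and the pathway genes named for both day 6 comparisons. Slc2a1, Mlxip and the marker genes are not covered by this statement. Over all genes, DESeq2 called 715 in the interaction (edgeR 86), 725 and 592 at day 21 against PBS after 1 and 3 doses (28 and 6), 569 and 824 in old HSCs against PBS 3 times and once (128 and 242) and 547 between the PBS groups (2). The replicate block gave 1509 calls in place of 2310 at day 6 after 3 doses, 55 in the interaction, 3 and 0 at day 21, 30 and 104 in old HSCs and 0 between the PBS groups. With all 21 libraries there were 257 and 185 at day 21 and 19 between the PBS groups. At day 21, library size alone gave 83 and 15, and after 3 doses RLE factors gave 3 and at least 10 counts in every library 23. Foxo4 and Foxo6 had the fewest counts of the FOXO genes.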

Other observations

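The genes whose pattern over the 21 libraries was most like that of a member were listed by Pearson's r of log2 normalized CPM, among 10906 genes with at least 100 counts on average, as a description. The libraries share groups, so the points are not independent. For Txnip they were Rnf167 (r = 0.968), Tsc22d3 (0.954), a glucocorticoid-induced leucine zipper gene, and Crebrf (0.953), and the most opposed were Hmga1b (−0.961), Hmga1 (−0.961) and Ppid (−0.956). Hmga1 and Hmga1b are near-identical copies between which reads may be split. For Akt1, which varied within groups, they were Rcc2 (0.967), Zdhhc18 (0.965) and Cdk2ap1 (0.958), and the most opposed was Wdfy1 (−0.849). For Akt2 they were Bin1 (0.857), Ndrg1 (0.846) and Gata1 (0.837), a factor of the megakaryocyte and erythroid lineages. For Pik3r1 they were Wfdc2 (0.820), Rasip1 (0.810) and Gas6 (0.806), and for Irs2 Ccnjl (0.818), Zfp963 (0.816) and Cbx7 (0.813).

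The highest values were lower for Foxo1 (0.780, Gpr137b), Foxo3 (0.738, Zxdc) and Foxo4 (0.738, Atp6v1g2). Between the members themselves the highest r was 0.721, for Irs2 with Txnip, and the lowest was −0.488, for Foxo1 with Akt1. Akt1 and Akt2 gave −0.436.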
